A study of Mus musculus with 21 samples.

Results

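Glast+ cells from mouse retinas at postnatal day 21 (P21) were compared with Glast+ cells at postnatal day 14 (P14), on 2 and 3 arrays, which are 5 of the 21 arrays of the series. The arrays were assigned by the age and sorted cell type in their labels, and all genes measured on them were compared. All animals were C57BL/6 mice, no mutation or treatment is stated for either age, and each sample held 200000 to 500000 cells. Cells were pulled out on magnetic beads through an antibody against Glast, the glutamate transporter encoded by Slc1a3, so the sort selects on a surface protein and not on a cell type as such. The labels speak of 2 to 3 independent biological replicates per age and do not say how many animals a sample pooled. The rest of the series covers Glast+ cells at P7 and P28 and Notch1+ cells from P0 to P14.

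Müller glia span the whole depth of the retina and are its main glial cells. They take up glutamate through Glast, turn it into glutamine with glutamine synthetase (Glul), return retinoid to cones with the binding protein Rlbp1, and buffer potassium and water. Mouse eyes open shortly before the earlier of these ages, and photoreceptor outer segments, ribbon synapses and the retinal vessel layers mature during the following week. Müller glia keep several genes of the progenitors they come from, among them Notch pathway genes such as Hes1 and Hes5, and they wrap every neuron, so that a preparation of these cells can carry RNA of their neighbours.

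The pair of P21 arrays differed more than any replicate pair among the other Glast+ ages. Over the 12609 genes tested, the SD of the log2 difference between P21 replicates 1 and 2 was 0.666, against 0.380, 0.543 and 0.592 for the pairs of P14 arrays and 0.368 for the pair at P7. At least 2-fold differences between the P21 arrays were seen for 1428 genes (11.3%), of which 510 were higher in replicate 1 and 918 in replicate 2. Across genes, which are not independent replicates, the P21 arrays correlated with r = 0.960, the P14 arrays among themselves with 0.968 to 0.987, and P21 with P14 arrays with 0.938 to 0.956. The scanner software found 69.4% to 73.8% of transcript probes on the P14 arrays, 64.4% on P21 replicate 1 and 68.8% on P21 replicate 2. Main results below are therefore given with their values on the arrays. Other genes are given as a difference between the means alone, which does not show how far apart the P21 arrays were. The number of arrays limits the precision. All 9 Glast+ arrays were scanned on the same day.

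**Figure D1:**
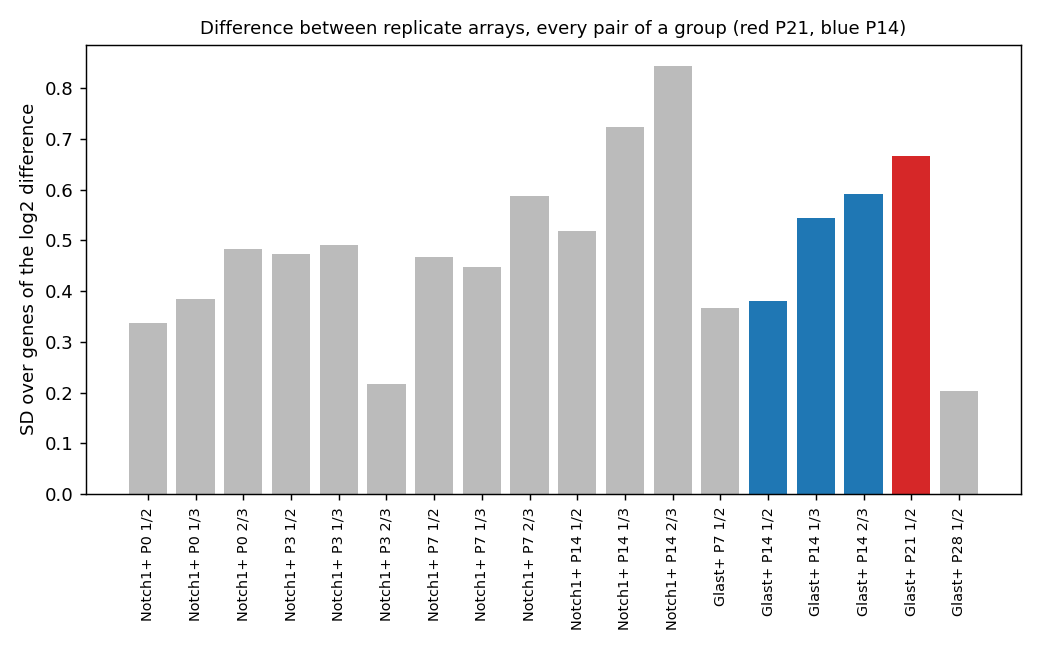
SD over 12609 genes of the log2 difference between replicate arrays, 1 bar for each pair of arrays within a group (red, Glast+ P21; blue, Glast+ P14; grey, other groups). The P21 pair stands at 0.666, above all other Glast+ pairs, and only pairs among the Notch1+ P14 arrays stand higher.

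Between P14 and P21, all 12 tested cone genes, 8 of 19 genes of bipolar cells, 7 of 29 of rods, 5 of 20 of synapses and 3 of 26 of endothelium rose in the Glast+ samples. Among the genes that fell were 17 of 29 immediate-early genes, 4 of 27 of the Notch pathway and 5 of 26 of microglia. Slc1a3, Glul, Rlbp1 and Sox9, which define Müller glia, did not pass the test. Each gene was tested with limma, and a gene counts as called where its p, adjusted by Benjamini-Hochberg, fell under 0.05. Calls were made for 1600 of 12609 genes (12.7%), with 825 (6.54%) rising and 775 (6.15%) falling by P21. At least 2-fold changes made up 936 of the calls, and 109 genes rose and 41 fell by 4-fold or more. The called gene nearest the threshold had an adjusted p of 0.0499969 and the first gene beyond it 0.0500596. Arrays of the ages did not overlap for 2426 genes higher (19.2%) and 2393 genes lower (19%) at P21, called or not, and for 1564 of the 1600 calls.

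The count depended on where the estimate of spread came from and on single arrays. With the spread taken from the 5 compared arrays alone, 43 genes were called, 32 higher and 11 lower, of which 42 were among the 1600. In that fit 4 bipolar genes, 2 retinal progenitor genes and 1 gene each of the Notch, neurogenic, amacrine and horizontal, endothelial, red cell and glycolysis lists were called, and 0 genes of the other lists, cone, rod, synaptic, immediate-early and microglia genes among them. Leaving out P21 replicate 1 left 851 calls and leaving out P14 replicate 1 left 1041. A total of 364 genes stayed called with each of the 5 arrays left out in turn, 182 in each direction. With arrays scaled to a common median, which moved the median difference of all genes to −0.11, the split of calls was 105 higher and 411 lower instead of 825 and 775. Without P14 replicates 1, 2 and 3 in turn, 563, 754 and 632 genes were called higher and 478, 590 and 814 lower. With the 9 Glast+ arrays alone in the fit, 602 were called higher and 611 lower. Counts of a list under such settings, given below, stand beside these totals, which moved as well.

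**Figure D2:**
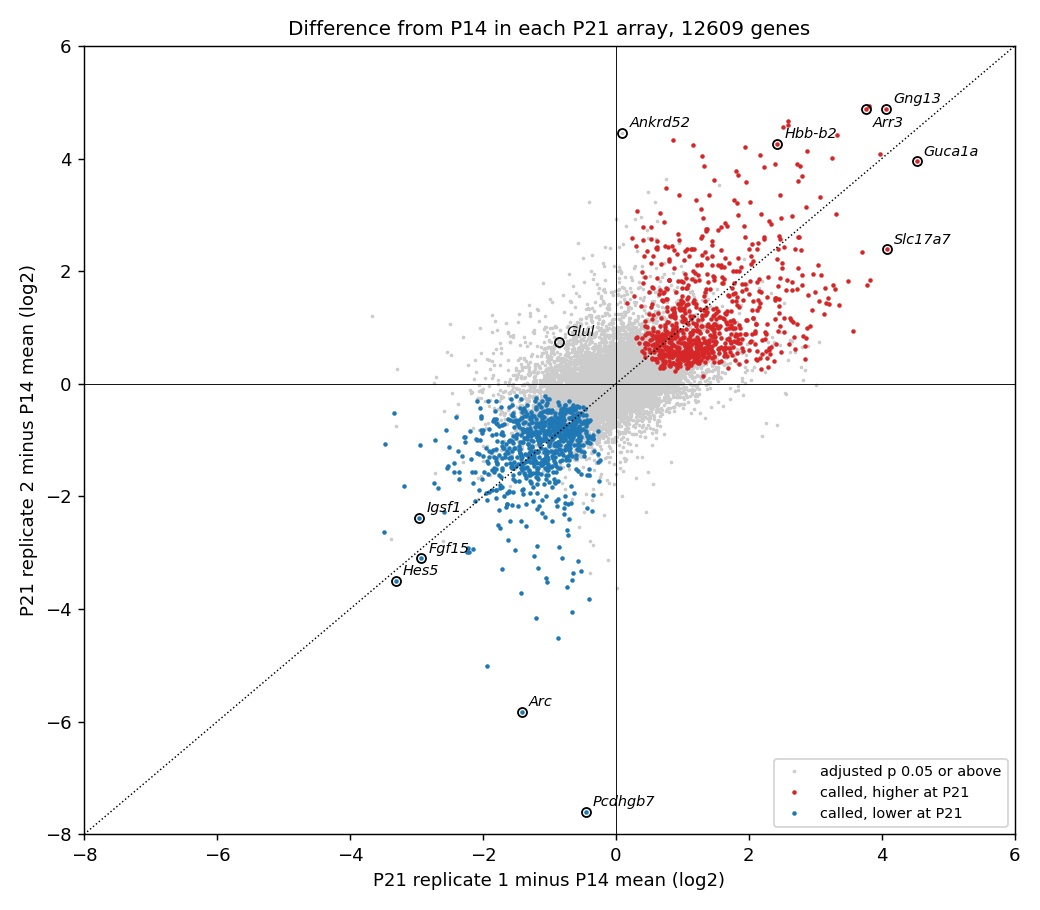
Log2 difference from the P14 mean in P21 replicate 1 (horizontal) and P21 replicate 2 (vertical) for 12609 genes, with calls in red (higher at P21) and blue (lower) and the diagonal dotted. Hes5 lies near the diagonal, and Gng13 and Arr3 lie somewhat above it (replicate 1 minus replicate 2, −0.82 and −1.12). Arc, Pcdhgb7 and Ankrd52 lie far from it.

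The markers of Müller glia were found on all 5 arrays, as the name of the sort requires. Values are normalized log2 intensities in the order of the replicate numbers. Slc1a3 read 15.52, 15.54 and 15.80 at P14 and 14.39 and 15.74 at P21, a difference of −0.55 (SE 0.46, limma adjusted p = 0.495), and lies near the top of the scale, where differences are compressed. P21 replicate 1 was below all P14 arrays, and replicate 2 lay among them. Glul read 14.76, 14.68 and 15.02 at P14 and 13.97 and 15.57 at P21 (difference −0.05, adjusted p = 0.960). Rlbp1 read 15.24, 15.15 and 14.71 at P14 against 13.99 and 15.51 (difference −0.28, adjusted p = 0.801). For these genes P21 replicate 1 was the lowest of the 5 arrays, and replicate 2 was the highest for Glul and Rlbp1.

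Sox9, a transcription factor of Müller glia, read 14.85, 14.53 and 15.37 at P14 and 13.81 and 14.12 at P21, without overlap, and its difference of −0.95 missed the threshold (adjusted p = 0.0968). Vim (−0.29), the intermediate filament vimentin, and Aqp4 (0.07), the water channel of glial endfeet, were also not called. Neither were Apoe (−0.11), a lipid carrier, and Clu (0.01), the secreted chaperone clusterin. The Apoe spot was saturated on 2 of the 3 P14 arrays, and the Clu spot on 2 P14 arrays and 1 P21 array. A difference in either gene could therefore be compressed or missed. Gfap, the filament protein that Müller glia make under stress, spread from 7.34 to 10.70 over the P14 arrays and read 7.79 and 8.21 at P21. Notch1 differed by −0.53 (adjusted p = 0.113).

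Of 33 tested genes of Müller glia identity, 1 rose, 2 fell and 30 were not called, so that 9.09% of the list were called against 12.7% of all genes. Called or not, 11 of the 33 were lower on both P21 arrays than on any P14 array, where 19% of all genes were. Only 1 was higher on both, where 19.2% of all genes were, and 9 had a positive difference. The list's median difference was −0.24 against 0.00 over all genes, from −0.55 on P21 replicate 1 to 0.05 on replicate 2, so its sign differed between the P21 arrays. Hes1 and Id1, both helix-loop-helix repressors, fell, and Spc25, a kinetochore protein known as a transcript of adult Müller glia, rose by 1.07 (13.26, 13.08 and 13.51 at P14, 14.06 and 14.65 at P21, adjusted p = 0.00971). The call for Id1 ended without P14 replicate 1 or P21 replicate 1 (adjusted p = 0.055 and 0.137), and that for Spc25 without P21 replicate 2 (adjusted p = 0.098). Of 23 tested genes of glial transport and ion buffering, only Gja1, the gap junction protein connexin 43, was called. It read 13.10, 12.99 and 13.55 at P14 and 11.41 and 11.19 at P21, and fell by 1.92 (SE 0.42, adjusted p = 0.00724), and both P21 arrays were low. Atp1b2, a sodium pump subunit, was higher on both P21 arrays than on any P14 array, at 14.93 and 14.67 against at most 14.02, but was not called (adjusted p = 0.0622).

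Cone genes were above their P14 means on both P21 arrays. All 12 tested genes of the cone list were called higher at P21, where 6.54% of all genes were, and the list's median difference was 2.22, with 1.74 on P21 replicate 1 and 2.82 on replicate 2. It was the largest median of the 40 lists, but not on replicate 1 alone, where the rod list's was 1.89. Arr3, the arrestin that shuts off cone opsins, read 9.31, 10.97 and 8.72 at P14 and 13.43 and 14.55 at P21, a rise of 4.32 (SE 0.71, limma adjusted p = 0.00123). Both P21 arrays lay far above all P14 arrays. Gnat2, the alpha subunit of cone transducin, read 9.38, 10.98 and 8.37 at P14 against 12.16 and 14.25 at P21 and rose by 3.63 (SE 0.75, adjusted p = 0.00538). Kcne2, a potassium channel subunit, read at most 7.53 at P14 and 8.84 and 10.05 at P21 and had the smallest adjusted p of the list (0.000247).

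Pde6c and Pde6h, subunits of the cone phosphodiesterase, rose by 2.77 and 3.31. Cnga3, a subunit of the cone cyclic nucleotide channel, rose by 2.03 and Gngt2, the cone transducin gamma subunit, by 1.80. Among the opsins, Opn1mw, for middle wavelengths, read 10.11, 11.93 and 9.88 at P14 and 13.03 and 14.53 at P21 (rise 3.15, adjusted p = 0.0086), and Opn1sw, for short wavelengths, read 6.58, 6.85 and 6.75 against 7.13 and 9.51 (rise 1.59, adjusted p = 0.0208). The Opn1sw rise rested mainly on P21 replicate 2. On 10 of the 12 cone genes replicate 2 was at least 2-fold above replicate 1, and only Cplx4, a complexin of ribbon synapses, went the other way, at 15.27 and 13.39.

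Mean log2 intensity over the cone list was 9.30, 10.21 and 8.78 on the P14 arrays and 11.31 and 12.55 on the P21 arrays. Arr3, Kcne2 and Pde6c stayed called with each array left out. Without P21 replicate 2, 4 of the 12 cone genes were called and Gnat2 was not (difference 2.59, adjusted p = 0.0661), whereas 11 were called without P21 replicate 1, 3 with arrays scaled to a common median, 7 with the 9 Glast+ arrays alone in the fit, and 0 with the 5 compared arrays alone. In such bulk samples, more cells of a type and more RNA per cell cannot be told apart. The rod and bipolar lists were higher on the same arrays, and the part of other cells in the sort was not tested.

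The regions around the starts of Arr3 and Gnat2, leading members of the list, run from 250 bases before to 50 after the annotated start (RefSeq, GRCm38.p6). They were chosen for display after the matches were seen. The searched motif, in capitals, is the core TAATCC or its reverse complement GGATTA, which homeobox factors of photoreceptors such as Crx and Otx2 are known to bind. Gnat2 lies on chr3:108092816-108093115, plus strand, and holds a match on the minus strand that begins 19 bases before the start. Arr3, on chrX:100605247-100605546, plus strand, holds none.
Arr3 promoter: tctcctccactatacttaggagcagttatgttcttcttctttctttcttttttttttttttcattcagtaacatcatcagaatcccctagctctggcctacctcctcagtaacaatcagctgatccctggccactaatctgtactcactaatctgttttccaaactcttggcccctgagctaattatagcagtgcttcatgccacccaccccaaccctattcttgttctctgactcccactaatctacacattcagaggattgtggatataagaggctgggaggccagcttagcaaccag
Gnat2 promoter: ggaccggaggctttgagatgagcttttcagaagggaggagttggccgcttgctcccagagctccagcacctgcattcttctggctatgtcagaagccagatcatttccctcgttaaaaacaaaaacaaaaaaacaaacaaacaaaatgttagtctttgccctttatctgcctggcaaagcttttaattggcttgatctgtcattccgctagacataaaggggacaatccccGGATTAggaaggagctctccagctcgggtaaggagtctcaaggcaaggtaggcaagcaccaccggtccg
Of the called cone genes, 8 had an entry in the promoter table, and 1 of these held the motif, as did 1 of 6 called bipolar genes (Cabp5), where 7.06% of 32851 promoters of the same length do. A match describes letters in the window and is not a measured binding site.

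The largest rise among all called genes was in a bipolar cell gene. Of 19 tested, 8 (42.1%) were called higher, where 6.54% of all genes were, and 0 lower. The median difference was 1.09 (0.86 on P21 replicate 1 and 1.35 on replicate 2). Gng13, a G protein gamma subunit of ON bipolar cells, read 9.21, 9.36 and 7.96 at P14 and 12.91 and 13.73 at P21, a rise of 4.47 (SE 0.42, limma adjusted p = 1.54e-05). Pcp2, a modulator of G protein signalling in rod bipolar cells, read 9.90, 9.74 and 8.92 against 12.77 and 13.53 and rose by 3.63 (SE 0.39, adjusted p = 3.74e-05). P21 replicate 2 was above replicate 1 for both genes, and both P21 arrays lay well above all P14 arrays.

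Car8, a carbonic anhydrase-related protein, read 6.30, 6.44 and 6.36 against 8.32 and 8.06 (rise 1.82). Its probe was found on only 1 of the 3 P14 arrays, so that it did not pass the filter on dim probes through P14. The rise of Car8 is given as a description, although the gene is counted among the calls of the list. Prkca, the protein kinase C alpha used to label rod bipolar cells, read 7.23, 7.46 and 7.70 against 8.50 and 8.61 (rise 1.09, adjusted p = 0.00148). Strip2, a striatin-interacting protein, read 7.57, 7.63 and 7.13 against 11.42 and 11.52, a rise of 4.02, but another of its probes differed by −0.27. Gng13, Pcp2, Prkca and Strip2 stayed called with each array left out, and Gng13, Pcp2 and Strip2 also with the spread taken from the 5 arrays alone.

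Members of the list that did not pass the test include transcription factors. Otx2 differed by 0.84 and Isl1 by 0.35. Grm6, the glutamate receptor of ON bipolar cells, spread from 8.45 to 11.76 over the P14 arrays and read 10.80 and 11.91 at P21. Scgn, the calcium sensor secretagogin of cone bipolar cells, read 8.42 on P21 replicate 1 and 12.06 on replicate 2. Mean log2 intensity over the list was 9.38, 9.73 and 9.11 at P14 and 10.30 and 11.21 at P21. Without P21 replicate 2 the count was 5 and with median scaling 4.

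Rod genes rose in part, with higher levels on P21 replicate 1. Of 29 tested, 7 (24.1%) were called higher, where 6.54% of all genes were, and 0 lower. A positive difference was seen for 28, and the median was 1.45, from 1.89 on replicate 1 to 0.74 on replicate 2. Guca1a, which activates guanylate cyclase in photoreceptors as calcium falls, read 11.17, 11.89 and 10.13 at P14 and 15.59 and 15.02 at P21 (rise 4.24, SE 0.60, limma adjusted p = 0.000412), and stayed called with each array left out. Tulp1, a protein of photoreceptor transport, read 10.10, 10.63 and 10.13 against 13.64 and 11.67 (rise 2.38, adjusted p = 0.00883). Rcvrn, the calcium sensor recoverin, read at most 11.66 at P14 and at least 12.21 at P21 (rise 1.93, adjusted p = 0.0267). For Tulp1 and Rcvrn replicate 1 was well above replicate 2, and both were above all P14 arrays.

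The rod transducin Gnat1 was near the top of the scale on all 5 arrays (0.30, adjusted p = 0.816), as were Pde6b and Pde6g. Mean log2 intensity over the list was 11.47, 12.30 and 10.86 at P14 and 13.41 and 12.52 at P21, so that P14 replicate 2 approached P21 replicate 2.

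The rod count rested on single arrays. It was 2 without P14 replicate 1, 11 without P14 replicate 2, 2 without P14 replicate 3, 1 without P21 replicate 1 and 9 without P21 replicate 2, and 2 with median scaling. In the retinoid cycle, 2 of 18 tested genes (11.1%) were called higher, where 6.54% of all genes were. These were Abca4 and Rbp3, both made by photoreceptors. Abca4 read 9.38, 11.57 and 9.33 at P14 and 12.72 and 11.27 at P21, so the ages overlapped (rise 1.90, limma adjusted p = 0.0315). Its call was lost without P14 replicate 1 or P14 replicate 3, and without P21 replicate 1 its difference was 1.18. Rbp3, which carries retinoid between cells, read 11.23, 12.12 and 10.67 against 15.12 and 13.09 (rise 2.76, adjusted p = 0.0203), and lost its call without P21 replicate 1 (1.75, adjusted p = 0.285), P14 replicate 1 (0.0553) or P14 replicate 3 (0.0626).

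Some genes of the synapse and of inhibitory neurons also rose. Of 20 synaptic genes, 5 (25%) were called higher, where 6.54% of all genes were, and 0 lower, with a median of 1.03. Slc17a7, the vesicular glutamate transporter of photoreceptor and bipolar terminals, read 8.35, 8.52 and 8.65 at P14 and 12.58 and 10.90 at P21 (rise 3.24, SE 0.36, limma adjusted p = 5.57e-05). Syp, the vesicle protein synaptophysin, read 11.72, 12.07 and 10.47 against 14.15 and 14.03 (rise 2.67, adjusted p = 0.00146). Vamp2, the vesicle fusion protein synaptobrevin, read 12.73, 12.86 and 12.87 against 14.12 and 14.05 (rise 1.26, adjusted p = 0.00219). The P21 arrays were nearly equal for Syp and Vamp2, and all 3 genes stayed called with each array left out. Syt1, a calcium sensor of release, and Snap25, a fusion protein, rose by 2.12 and 1.78, although without P21 replicate 1 neither was called (adjusted p = 0.0552 and 0.112). The synaptic count was 8 without P14 replicate 2 and 3 with median scaling.

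Of 20 amacrine and horizontal cell genes 4 (20%) rose, where 6.54% of all genes did, and 16 were not called. A positive difference was seen for 12, and the list's medians were 0.03 on P21 replicate 1 and 0.25 on replicate 2. Slc32a1, the vesicular transporter of GABA and glycine, read 7.51, 7.92 and 7.68 at P14 and 9.94 and 11.55 at P21 (rise 3.04, adjusted p = 0.00693). Gad1, which makes GABA, rose by 3.07 (10.21 and 12.47 at P21) and Calb2, the calcium buffer calretinin, by 2.19. Tfap2c, a transcription factor, read 7.13, 8.16 and 7.52 against 10.68 and 10.91 and rose by 3.19, while another of its probes differed by −0.27. Another probe of Calb2 differed by 0.67. Without P21 replicate 2 the list had 2 calls, and Slc32a1 (2.23, adjusted p = 0.0759), Gad1 (1.95, adjusted p = 0.149) and Calb2 (1.28, adjusted p = 0.103) were not. The ganglion cell list had 2 calls of 19 (10.5%), Ebf1 and Nrn1, both higher, where 6.54% of all genes were. Its median was 0.08, and it had 0 calls without P14 replicate 1, P14 replicate 2 or P21 replicate 2. The probe of Pou4f2, which defines ganglion cells, was found on 0 of 3 P14 arrays and 1 of 2 P21 arrays, and that of Nefl was not kept for testing.

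**Figure D3:**
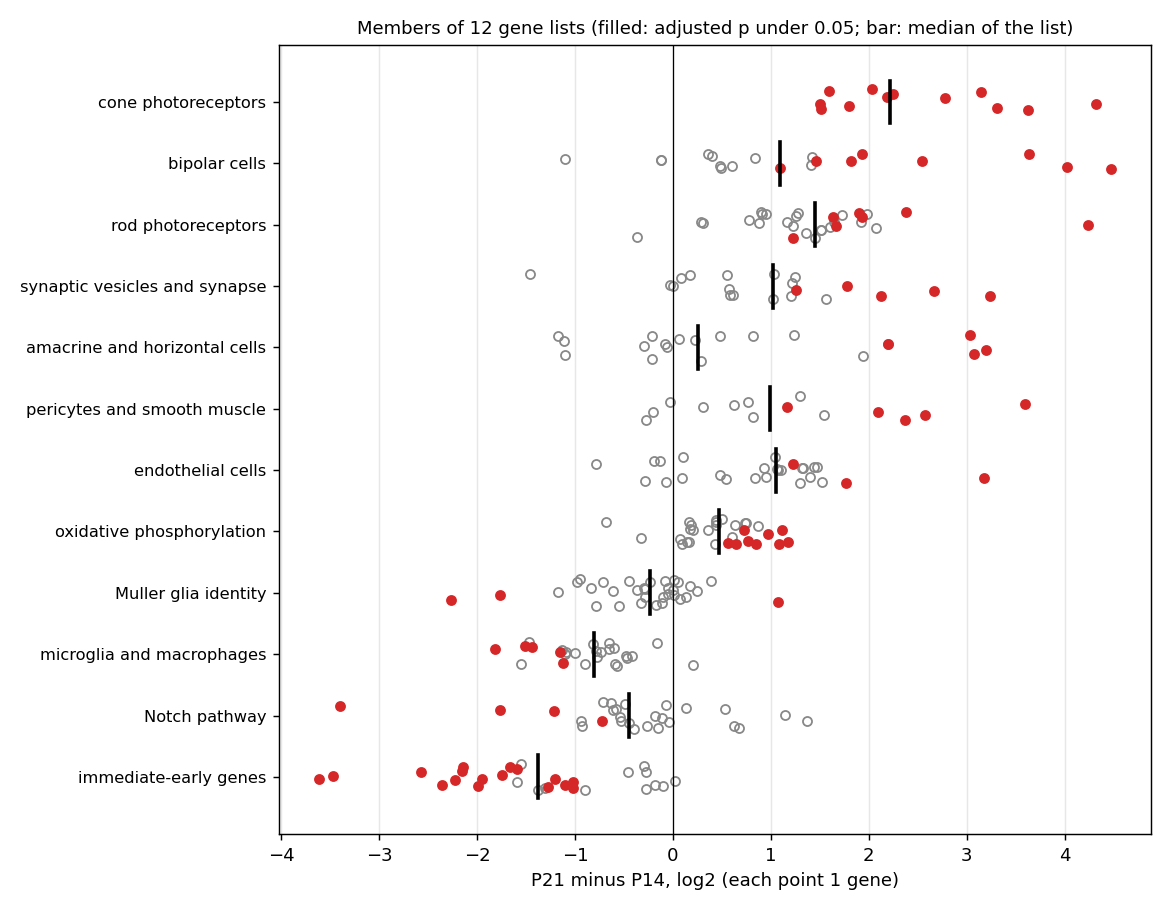
Log2 difference between P21 and P14 for each tested member of 12 gene lists, 1 point per gene, filled where the adjusted p was under 0.05, with a bar at the median of the list. All 12 cone genes lie above 0 and are filled, 17 of 29 immediate-early genes are filled on the lower side, and genes of Müller glia identity centre near −0.24.

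Some genes of energy metabolism also rose. Of 30 oxidative phosphorylation genes, 9 (30%) were called higher, where 6.54% of all genes were, and 0 lower. A positive difference was seen for 28, and the list's median was 0.47. Ndufv1, a subunit of complex I, read 13.25, 13.41 and 12.97 at P14 and 14.41 and 13.96 at P21 (rise 0.97, SE 0.17, limma adjusted p = 0.00197). Ndufa4 read 13.47, 13.58 and 13.30 against 15.17 and 14.08 (rise 1.17, adjusted p = 0.00309). No P21 array overlapped a P14 array for either gene. The count fell to 5 without P14 replicate 3 and to 0 with median scaling, where the list's median stayed above 0. Over all genes, higher calls fell from 825 to 632 and to 105 in these settings. The list's count also fell without P21 replicate 1, a fit that leaves 1 array at P21.

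Of 19 glycolysis genes 5 (26.3%) rose and 1 (5.26%) fell, where 6.54% and 6.15% of all genes did. Pkm, pyruvate kinase, read 10.02, 9.70 and 9.87 at P14 and 12.75 and 11.44 at P21 (rise 2.23, adjusted p = 0.000277), although its probes ranged from 0.35 to 2.23. Eno2, the enolase of neurons, read 10.84, 11.37 and 10.90 against 13.18 and 13.54 (rise 2.32, adjusted p = 0.00461). Aldoa, aldolase, read 13.91 and 13.87 on P14 replicates 1 and 2, somewhat more on replicate 3, and 15.36 and 15.25 at P21 (rise 1.28, adjusted p = 0.00514). Both P21 arrays were above all P14 arrays for these genes, which stayed called with each array left out. Hk1, hexokinase, rose by 1.49 and Pgam1, phosphoglycerate mutase, by 1.28, and without P21 replicate 1 Hk1 was not called (adjusted p = 0.228). Pfkfb3, an activator of glycolysis, fell by 1.58 (13.38, 13.37 and 13.96 against 12.02 and 11.96), a call that ended without either P21 array (adjusted p = 0.0741 and 0.0568). The photoreceptor, bipolar and synaptic lists were higher on the same P21 arrays, and their part in these values was not tested.

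Few endothelial genes passed the test. Of 26 tested 3 (11.5%) rose, where 6.54% of all genes did, and 23 were not called. The median was 1.05, and 16 were higher on both P21 arrays than on any P14 array, as were 19.2% of all genes. Ly6c1, a surface protein of endothelium, read 9.59, 9.39 and 10.08 at P14 and 12.43 and 13.29 at P21 (rise 3.18, limma adjusted p = 0.00466). Cldn5, the tight junction protein claudin 5, read 13.23, 13.16 and 13.61 against 14.34 and 14.79 (rise 1.23, adjusted p = 0.00954, and 0.0757 without P21 replicate 2). Pecam1 differed by 1.04 and was not called. The endothelial count was 8 without P14 replicate 3, which had the highest mean level of the list among P14 arrays (10.40 against 9.80 and 9.87), 1 without P21 replicate 2, and 12 with the 9 Glast+ arrays alone in the fit.

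Of 14 pericyte and smooth muscle genes 5 (35.7%) rose, where 6.54% of all genes did. The list's medians were 0.11 on P21 replicate 1 and 1.63 on replicate 2. Higd1b, a pericyte transcript, read 7.18, 7.67 and 7.68 at P14 and 10.10 and 12.11 at P21 (rise 3.59, SE 0.49, adjusted p = 0.000332). Myh11, smooth muscle myosin, read at most 7.72 at P14 and 9.37 and 10.24 at P21 (rise 2.37, adjusted p = 0.000247). Acta2, smooth muscle actin, read 6.77, 6.84 and 6.70 against 7.43 and 8.44 (rise 1.17, adjusted p = 0.00286), but its other probe differed by 0.11. Rgs5, a defining gene of pericytes, differed by 0.77 and was not called, and 3 members were called with median scaling.

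Of 8 tested red cell genes 3 (37.5%) rose, where 6.54% of all genes did. Alas2, the heme synthesis enzyme of red cell precursors, read 7.05, 7.39 and 7.17 at P14 and 9.53 and 10.04 at P21 (rise 2.58, adjusted p = 0.000854). The beta globins Hbb-bt and Hbb-b2 rose by 3.50 and 3.35, and as near-identical copies their probes cannot be taken as separate measurements. The red cell list averaged 7.84, 8.35 and 7.58 at P14 and 9.10 and 9.93 at P21.

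Of 30 matrix genes 6 (20%) were called lower, where 6.15% of all genes were, and 2 (6.67%) higher, which is near the 6.54% of all genes. Dcn and Col3a1, matrix genes of fibroblasts and vessel walls, rose by 2.59 and 2.38, with P21 replicate 2 at 10.49 and 9.99 and replicate 1 at 7.95 and 8.03. Col3a1 was found on only 2 of the 3 P14 arrays, so that it did not pass the filter on dim probes through P14. Its rise is given as a description, and its other probe differed by 0.23. Optc, the eye proteoglycan opticin, read 8.99, 8.81 and 8.53 at P14 and 7.35 and 7.50 at P21 (it fell by 1.35, adjusted p = 0.000296). Agrn, a basement membrane proteoglycan, Tnc, tenascin C, and Nid2, a linker of basement membranes, fell as well (−1.04, −1.66 and −1.53), although other probes of Agrn and Tnc differed by −0.27 and −0.22. Without P21 replicate 1 the list had 1 lower call, and Agrn (adjusted p = 0.0646) and Nid2 (0.267) were not called.

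Hes5, Hes1 and Nrarp, known targets of Notch, fell. Of 27 tested genes of the Notch pathway 4 were called lower, where 6.15% of all genes were, 0 higher and 23 were not called, and the median difference was −0.45. Hes5, a repressor switched on by Notch, read 13.09, 11.86 and 12.60 at P14 and 9.21 and 9.02 at P21, and fell by 3.41 (SE 0.67, limma adjusted p = 0.00402). Hes1, a related repressor, read 14.55, 14.23 and 14.11 against 12.68 and 12.38 and fell by 1.76 (SE 0.26, adjusted p = 0.000579). Both P21 arrays were low and close together. Nrarp, a Notch target that limits the pathway, read 13.81, 13.24 and 14.00 against 12.28 and 12.65 (it fell by 1.22, adjusted p = 0.00344). Ncstn, the gamma secretase subunit nicastrin, read 12.86, 12.92 and 12.80 against 12.26 and 12.01 (it fell by 0.72, adjusted p = 0.00523).

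All 4 stayed called with each array left out, and Hes5 also with the spread from the 5 arrays alone. Without P21 replicate 2 the list had 7 lower calls. The ligands Dll4 and Jag1 were higher on both P21 arrays than on any P14 array, at 1.14 and 1.37, and missed the threshold (adjusted p = 0.0647 and 0.0856). Receptors were not called, with Notch1 at −0.53, Notch3 at 0.62 and Notch4 at 0.67. The Müller glia list averaged 13.34, 13.24 and 13.26 at P14 and 12.65 and 13.23 at P21, and the part of Müller glia in the Notch values was not tested.

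The regions around the starts of Hes5 and Nrarp are those of the called members with the largest differences among members with a promoter entry. They were chosen for display after the matches were seen. Capitals mark the core TGGGAA or its reverse complement TTCCCA, within the sequence that the Notch-dependent factor Rbpj is known to bind. Hes5, on chr4:154960673-154960972, plus strand, holds a match on the minus strand that begins 226 bases before the start and another on the plus strand at 82. Nrarp, on chr2:25180508-25180807, plus strand, holds none.
Hes5 promoter: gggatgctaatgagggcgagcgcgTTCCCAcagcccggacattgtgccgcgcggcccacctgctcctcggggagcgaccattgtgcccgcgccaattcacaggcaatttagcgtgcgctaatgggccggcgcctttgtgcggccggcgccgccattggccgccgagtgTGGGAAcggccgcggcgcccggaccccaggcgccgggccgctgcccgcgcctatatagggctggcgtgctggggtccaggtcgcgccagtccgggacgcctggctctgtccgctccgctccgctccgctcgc
Nrarp promoter: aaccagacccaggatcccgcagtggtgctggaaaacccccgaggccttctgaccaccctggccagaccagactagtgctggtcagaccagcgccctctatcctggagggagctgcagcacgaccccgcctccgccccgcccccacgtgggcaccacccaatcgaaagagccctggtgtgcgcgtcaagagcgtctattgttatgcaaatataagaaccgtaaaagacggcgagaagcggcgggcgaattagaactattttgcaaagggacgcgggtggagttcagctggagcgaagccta
Of the called Notch genes 3 had a promoter entry, and 1 held the core, which is in 25.6% of all promoters of this length.

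Of 20 retinal progenitor genes 4 (20%) fell, where 6.15% of all genes did. These were Hes1, Hes5, Fgf15 and Zic1, and the list's median was −0.49. Fgf15, a secreted growth factor of progenitors, read 10.14, 9.35 and 10.07 at P14 and 6.92 and 6.75 at P21 (it fell by 3.01, SE 0.44, limma adjusted p = 0.000512). Zic1, a zinc finger factor, fell by 1.42, a call lost without P21 replicate 1 (−0.81, adjusted p = 0.464), without P14 replicate 1 (adjusted p = 0.112) and without P14 replicate 2 (0.118). Sox2, Pax6, Rax and Lhx2 were not called. Of 21 neurogenic factors 1 (4.76%) was called lower, a share under the 6.15% of all genes. It was Sox4, a factor of young neurons, which read 13.05, 12.80 and 13.15 against 10.98 and 11.32 (it fell by 1.85, adjusted p = 0.00458). Fgf15 and Sox4 stayed called with each array left out and with the spread from the 5 arrays alone. Among mitosis genes 4 of 30 (13.3%) were called lower, among them Cdk1 and Prc1, at −1.68 and −1.71, although another Cdk1 probe differed by 0.07. Called higher were 2 (6.67%, near the background of 6.54%), Spc25 and Bub1b, the latter a checkpoint kinase at 9.83, 9.77 and 9.17 against 11.35 and 11.18. Without P21 replicate 2 the list had 1 lower call, and neither Cdk1 (adjusted p = 0.0566) nor Prc1 (0.0867) was called.

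Many immediate-early genes, which cells switch on within minutes of a stimulus, fell. Of 29 tested 17 were called lower, where 6.15% of all genes were, and 0 higher, only Egr1 had a positive difference, and the median was −1.38. Jun, a subunit of the AP-1 factor, read 15.55, 15.40 and 15.08 at P14 and 13.99 and 13.21 at P21 (it fell by 1.74, SE 0.35, limma adjusted p = 0.00423). Atf3, a stress-induced factor, read 15.34, 15.20 and 14.95 against 13.42 and 12.60 (it fell by 2.15, adjusted p = 0.000933). Zfp36, which speeds the decay of unstable mRNA, read 15.09, 15.23 and 15.53 against 12.76 and 13.83 (it fell by 1.99, adjusted p = 0.00211). Egr4 read 9.56, 8.02 and 8.49 against 6.73 and 6.75 (it fell by 1.95, adjusted p = 0.000783). The P21 arrays did not reach the P14 arrays for any of the 4, and these are the members that stayed called with each array left out.

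Other members fell mainly on P21 replicate 2. Arc, a synaptic immediate-early gene, read 14.54, 13.74 and 14.92 at P14 and 12.99 and 8.58 at P21 (it fell by 3.62, adjusted p = 0.00677). Nr4a1, an orphan nuclear receptor, read 11.52, 10.66 and 12.24 against 10.04 and 7.76 (it fell by 2.57, adjusted p = 0.00868), and Egr3 13.67, 12.66 and 14.74 against 11.76 and 8.67 (it fell by 3.48), with another Egr3 probe at 0.11. Without P21 replicate 2 these genes were not called, with Arc at −1.41 (adjusted p = 0.0517), Nr4a1 at −1.43 (0.127) and Egr3 at −1.94 (0.129). Fos and Egr1, near the top of the scale, differed by −0.46 and 0.02 and were not called.

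The immediate-early list averaged 13.27, 12.90 and 13.57 at P14 and 12.34 and 11.30 at P21. Its count was 9 without P14 replicate 1, 11 without P14 replicate 3, 5 without P21 replicate 2 12 with median scaling, 9 with the 9 Glast+ arrays alone and 0 with the 5 compared arrays alone, against 16 without P21 replicate 1. Of 15 called members with a promoter entry, 0 held the cyclic AMP response element TGACGTCA, which reads the same on both strands and is in 1.79% of promoters. Of 21 heat shock and unfolded protein genes 5 (23.8%) fell, where 6.15% of all genes did. Among them were Hspa1a, an inducible chaperone at 11.73, 11.65 and 13.05 against 11.62 and 8.82, and Ddit3, a factor of the unfolded protein response, at −1.66. The heat shock count was 1 without P14 replicate 1, 2 without P14 replicate 3 and 1 without P21 replicate 2.

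**Figure D4:**
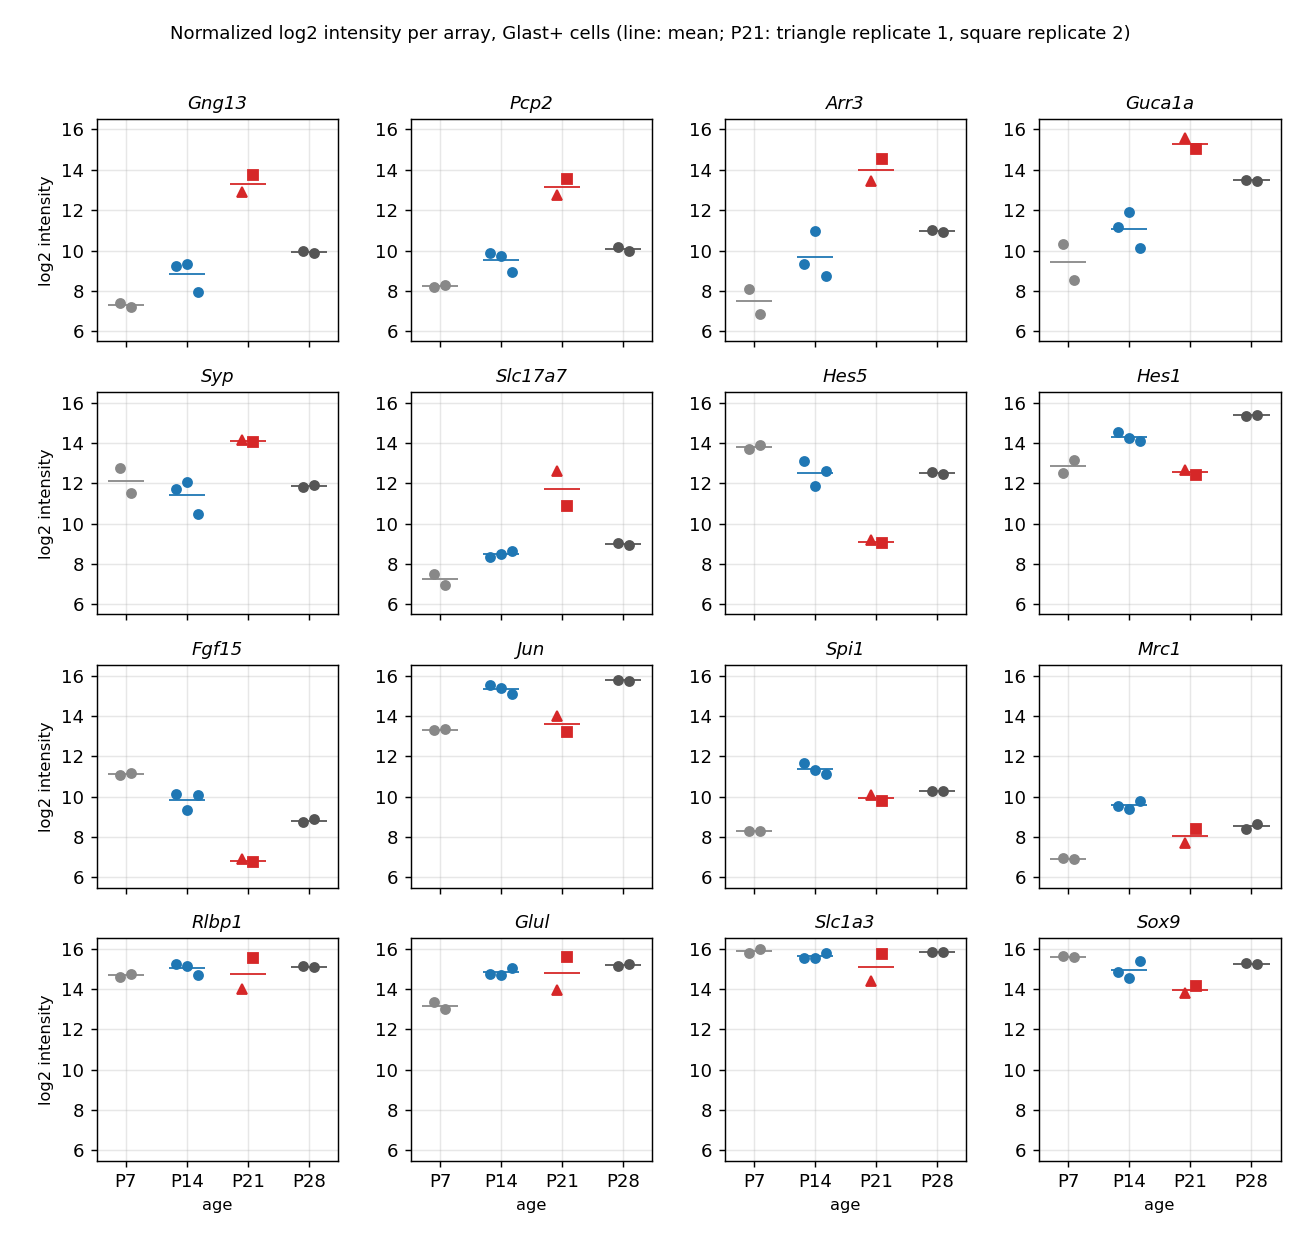
Normalized log2 intensity of 16 genes on each Glast+ array by age, with a line at the mean of an age, and P21 replicate 1 as a triangle and replicate 2 as a square. Gng13, Pcp2, Arr3, Guca1a, Syp and Slc17a7 peak at P21, Hes5, Hes1, Fgf15 and Jun are lowest or low there, and Rlbp1, Glul and Slc1a3 show the spread between the P21 arrays.

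Microglia and macrophage genes fell in part. Of 26 tested 5 (19.2%) were called lower, where 6.15% of all genes were, and 0 higher. Only 1 had a positive difference, and the median was −0.80. Spi1, the transcription factor PU.1 of myeloid cells, read 11.69, 11.31 and 11.10 at P14 and 10.08 and 9.76 at P21 (it fell by 1.44, SE 0.23, limma adjusted p = 0.000849). Mrc1, a mannose receptor of macrophages, read 9.53, 9.38 and 9.79 against 7.72 and 8.39 (it fell by 1.51, adjusted p = 0.000891). Cx3cr1, the fractalkine receptor of microglia, read 14.56, 15.33 and 14.57 against 12.31 and 13.69 (it fell by 1.82, adjusted p = 0.0117), and was not called without P21 replicate 1 (−1.13, adjusted p = 0.213). Both P21 arrays lay below all P14 arrays for the 3 genes, and 18 of the 26 did not overlap in this direction, as did 19% of all genes. The count was 3 without P21 replicate 1, 11 with the 9 Glast+ arrays alone in the fit, 10 with the probes of each gene averaged and 0 with the 5 compared arrays alone. The list averaged 12.92, 12.90 and 12.31 at P14 and 11.66 and 12.01 at P21.

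Other immune and injury genes were fewer. Of 12 tested genes of lymphocytes and neutrophils 3 (25%) fell, where 6.15% of all genes did. Among them was Cd79b, part of the B cell receptor, at 10.80, 10.98 and 9.80 against 9.14 and 9.12 (it fell by 1.39, limma adjusted p = 0.00514). The lymphocyte and neutrophil count was 1 without P14 replicate 1 or 2 and 5 without P14 replicate 3. Of 28 reactive gliosis genes 3 (10.7%) fell, where 6.15% of all genes did, and 0 rose. All 3 stayed called with each array left out. Cebpb, a factor of the inflammatory response, read 13.16, 12.44 and 12.95 against 11.42 and 10.41 (it fell by 1.94, adjusted p = 0.000337). A2m, a protease inhibitor, and Bcl3, a regulator of NF-kappa B, fell too (−1.66 and −1.79). Irf1, an interferon-induced factor, read 14.43, 13.07 and 15.08 against 11.95 and 11.21 (it fell by 2.61, adjusted p = 0.000718), with another probe at −1.14. It was the only call among 31 interferon and MHC class I genes (3.23%, under the 6.15% of all genes called lower). Of 13 tested lens crystallins 3 (23.1%) fell, where 6.15% of all genes did. These were Crybb1, Cryba4 and Crygn (−1.84, −1.78 and −1.22), and the defining lens gene Cryaa was not kept for testing.

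Several of the largest changes belonged to genes outside these groups. Lrtm1, a leucine-rich repeat membrane protein, read 8.61, 9.62 and 8.02 at P14 and 12.56 and 13.68 at P21 (rise 4.37, SE 0.49, limma adjusted p = 5.79e-05). Tmem130, a transmembrane protein, rose by 3.87 and Tnnt1, a troponin of slow muscle, by 3.54 (at most 8.60 at P14 against 10.78 and 12.84). Among the falls, Igsf1, an immunoglobulin superfamily membrane protein, read 9.66, 9.52 and 9.80 against 6.70 and 7.28 (it fell by 2.67, SE 0.21, adjusted p = 3.04e-06), with another probe at −1.28. Chodl, chondrolectin, read 11.40, 11.70 and 10.61 against 7.74 and 8.60 (it fell by 3.06), and Adamts19, a secreted protease, 11.95, 11.23 and 11.54 against 9.34 and 8.66 (it fell by 2.58). Tmem88, a membrane protein, fell by 2.60 with P14 replicate 3 at 12.25 and the other P14 arrays at 9.60 and 9.83. These 7 genes stayed called with each array left out. Hmox1, heme oxygenase, read 13.65, 13.56 and 13.32 against 12.30 and 9.36 and was not called without P21 replicate 2 (−1.21, adjusted p = 0.104).

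The genes furthest apart between the P21 arrays show how far a mean of 2 arrays can lie from either. Pcdhgb7, a protocadherin, read 13.73, 13.20 and 13.27 at P14, 12.94 on P21 replicate 1 and 5.80 on replicate 2. It fell by 4.03, the most of all called genes (limma adjusted p = 0.0308), and without replicate 2 its difference was −0.46 (adjusted p = 0.382). Its call also ended without any single P14 array (adjusted p = 0.0548 to 0.0818). Cxcl1, a chemokine, Csrnp1, a nuclear protein, Maff, a small Maf factor, and Fosb, of the AP-1 factor, were also higher in replicate 1, by 3.39 to 3.65. Cxcl1 was not called, and Csrnp1, Maff and Fosb lost their calls without replicate 2. Other probes of Fosb and Maff differed by 0.53 and −0.08.

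In the other direction, Ankrd52, an ankyrin repeat protein, read 7.56 on P21 replicate 1 and 11.92 on replicate 2, and Cabp2, a calcium-binding protein of retinal neurons, 8.97 and 12.43. Hsd3b7, a bile acid enzyme, read 9.25 and 12.80 and Parp12 7.86 and 11.43. Of these Cabp2 alone was called (limma adjusted p = 0.0295), and it was not without replicate 2 (0.86, adjusted p = 0.432). Of all 1600 calls, 297 had P21 arrays at least 2-fold apart.

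Whole lists differed between the P21 arrays. Of all 12609 genes, 510 were at least 2-fold higher on replicate 1 and 918 on replicate 2. Of 29 rod genes 12 were at least 2-fold higher on replicate 1 and 0 on replicate 2, and of 12 cone genes 1 and 10. Bipolar genes stood apart on 0 and 7 of 19, pericyte genes on 0 and 7 of 14, and matrix genes on 0 and 10 of 30. For genes of Müller glia identity the counts were 0 and 8 of 33. Immediate-early genes went the other way, with 13 of 29 at least 2-fold higher on replicate 1 and 1 on replicate 2, as did 7 and 0 of 15 genes of pigment epithelium and melanocytes. Rpe65, which defines pigment epithelium, read 9.24 on replicate 1 and 6.50 on replicate 2, and its probe was found on 1 of them. These are differences between 2 arrays, with no test.

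**Figure D5:**
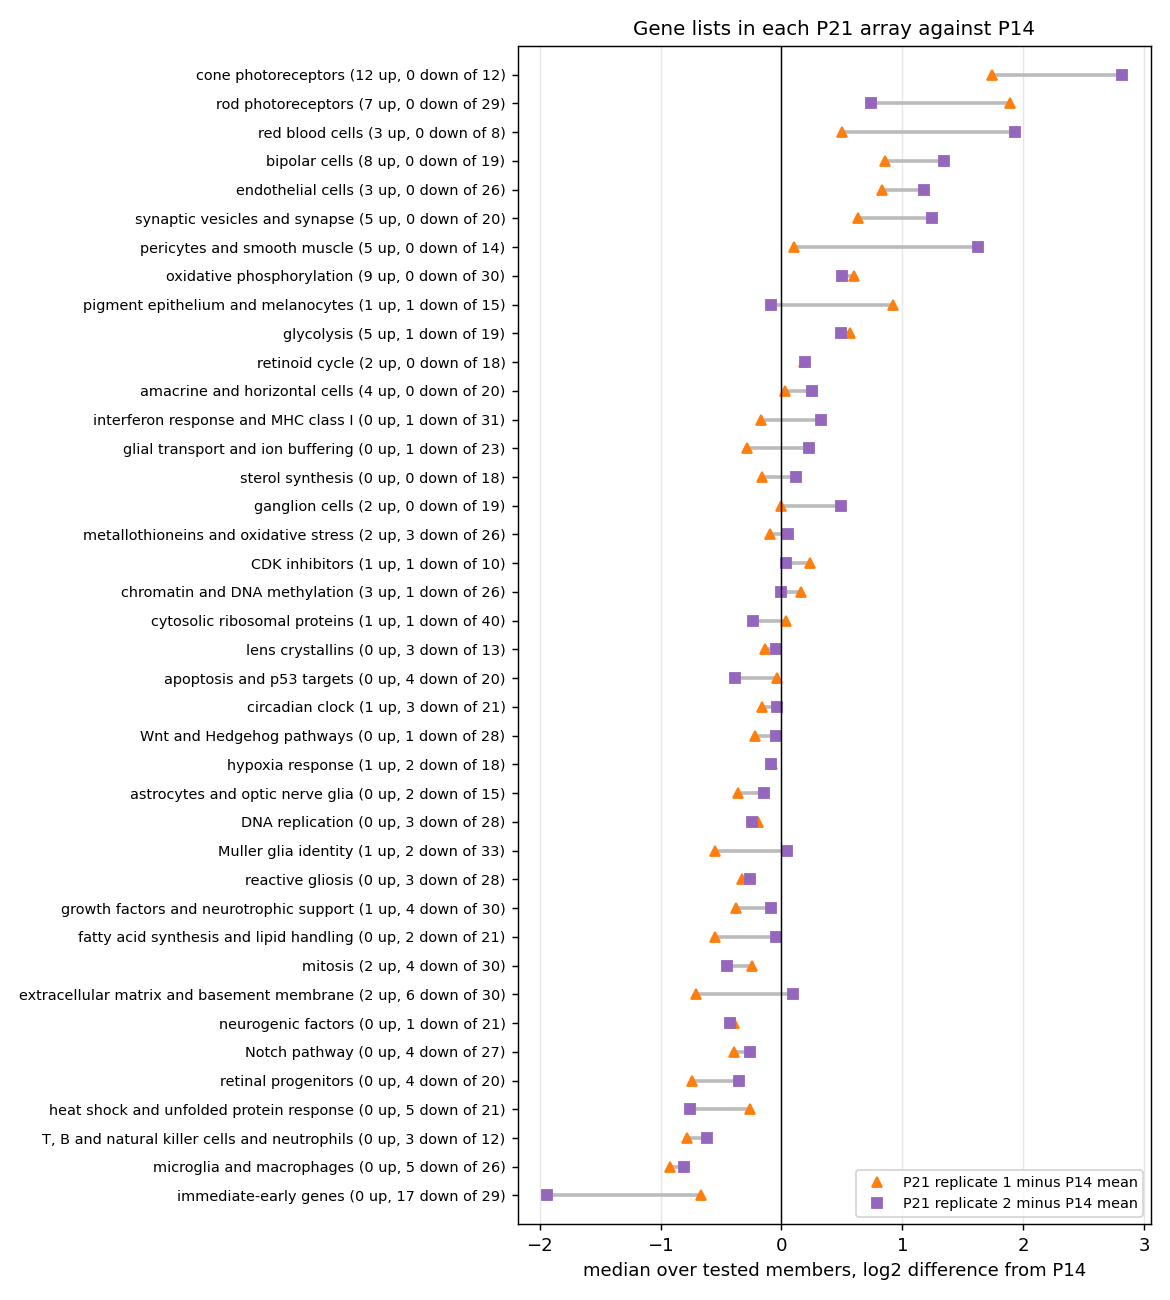
Median log2 difference from the P14 mean over the tested members of each of 40 gene lists, as a triangle for P21 replicate 1 and a square for replicate 2, with the calls of the list beside its name. Cone, bipolar and rod lists lie above 0 on both arrays, immediate-early genes lie at −0.67 and −1.94, and genes of Müller glia identity lie on either side of 0.

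Set beside the pair of arrays at P28, which carry a single sample code and may be 1 sample on 2 arrays, several of these groups did not keep their P21 levels. The cone list averaged 11.31 and 12.55 at P21 and 9.86 and 9.78 at P28, and the bipolar list 10.30 and 11.21 against 8.74 and 8.68. The immediate-early list averaged 12.34 and 11.30 at P21 and 13.20 on both arrays at P28. Gng13 had a mean of 9.93 at P28, nearer to its P14 than to its P21 values, and Hes5 one of 12.49, within its P14 values. The endothelial list, at 10.66 and 11.14 at P21 and 10.79 and 10.78 at P28, stood above the P14 levels of 9.80 to 10.40 at both ages. Comparisons with P28 share the P21 arrays and were not used as support.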

How the data were processed

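Single-channel arrays of long oligonucleotide probes were hybridized with biotin-labelled amplified RNA and stained with a streptavidin dye, per the labels' protocols. Images were read with GenePix Pro 4.1.1.4, per the file headers. The deposited values used here are intensity readings of each spot and its surroundings, in the scanner's units, and a flag for spots not found. The authors' processed table, a linear intensity scale without log, served as an alternative.

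Spot medians were corrected for background with normexp (offset 50), limited to 34312 transcript probes, quantile normalized over 21 arrays and put on the log2 scale. Probes stayed in where some group had them found on each of its arrays (25264 probes). Symbols came from probe accessions in a RefSeq table (GRCm38.p6), which named 22933 transcript probes and left 11379 unnamed. Each gene took its brightest kept probe (12609 genes, 4003 with several probes). Kcnj10, Trpm1, Csf1r, Hbb-b1 and Mki67 had no matched probe.

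The limma fit (limma 3.58.1, R 4.3.3) estimated 8 group means with 13 residual degrees of freedom and empirical Bayes moderation, and its p-values were adjusted by Benjamini-Hochberg. They measure the spread between arrays, pooled over all groups. That pool includes the P28 pair, which may be 1 sample on 2 arrays and had an SD of 0.203 between them, against 0.666 at P21. If it is 1 sample, its spread is not one between samples, and the p-values of all calls share it. Genes named are 11 fixed ones, the 12 largest non-overlapping calls per direction, up to 3 called members per list and direction, the 6 widest gaps between the P21 arrays each way, and members of the lists described, some of which are not reported here. The comparison, the 40 gene lists and the named genes were chosen with earlier results of these data known. The promoters shown were chosen after the matches were seen. Those of Gng13, Strip2, Nr4a1 and Fosb were searched in the same way, held no match to the motif of their list and are not shown. In simulated data with 200 changed genes, 39% of 2-fold and 83% of 4-fold changes were recovered, and 4.69% of calls were false. The simulated noise was independent and normal with the same SD in all groups for a gene, as the fit assumes. The measured P21 arrays differed more than the other Glast+ pairs, so these rates check the code and do not give the false share of the real calls. Alternatives are in the closing section. Python 3.11.15, pandas 2.3.3, matplotlib 3.10.9, data.table (version 1.17.8) and jsonlite 2.0.0 were used.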

Additional observations from a re-analysis of the deposited data

Results flagged for a closer look

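Probes without a gene symbol were left out of the report's comparison. Of 7347 such probes that were kept, 618 were called between P21 and P14 in the same limma model, 328 higher and 290 lower. They have no name here because their accessions matched no entry of the RefSeq table, and what they measure was not tested.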

How the results depend on the processing

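The count of 1600 calls (825 higher, 775 lower) kept within 1.5 times under no background correction (1605), the authors' processed values (1574), no filter on dim probes (1531), probes found on every array of both groups (1480), a trended prior (1545), averaging the probes of each gene (1571), the mean of spot pixels (1699, chosen after the data were seen) and a fit of the 9 Glast+ arrays (1213). It moved with median scaling to 516 (105 and 411), with the 5 compared arrays alone to 43 (32 and 11), with a 2-fold requirement to 936 (495 and 441) and with array weights to 936 (427 and 509). Cyclic loess gave 1067, of which 472 were higher. Calls higher at P21 made up 51.56% of calls, but 20.35% with median scaling and 74.42% with the 5 arrays alone. Leaving out each array gave 851 to 1643 calls, 461 to 893 higher and 390 to 814 lower. With the replicate number as a block, limma called 0 genes (0 higher, 0 lower), and 2199 genes had an unadjusted p under 0.05. The numbers are not known to mark shared animals, and deviations of equal-numbered arrays correlated at −0.0647 over only 2 pairs. The SD between the P21 arrays was 0.666 and ranged from 0.562 to 0.702. Of the 1600 calls 220 held in each of the 17 other settings counted in which the gene was tested. The settings counted leave out the block and the 5-array fit. A gene that a setting did not test was not counted as lost there. Probes near the top of the intensity scale compress differences, and 2 arrays at P21 leave its spread poorly known.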
